A study of Noccaea caerulescens and Thlaspi montanum with 10 samples.

Results

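The leaf transcripts described here are 114 of 41841 assembled contigs that were read in field leaves of Noccaea montana and not detected in field leaves of either N. caerulescens plant of the study. A contig is a stretch of transcript put together from short reads. A contig was a member when it reached at least 1 CPM (its reads scaled to a library total of 1000000) in both N. montana libraries. It also had to hold at most 3 reads summed over the 2 firmiensis libraries, and at most 3 over the 2 Viviez libraries. These counts chose the members, so their levels in N. montana against the other plants are a description and were not used as a test. The contigs carry numbers and the files pair none of them with a gene, so no function is given, and the labelled leaf tissue could not be checked against marker genes.

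The 3 groups were leaves of 2 separate N. montana individuals, of 2 individuals of N. caerulescens subsp. firmiensis (firmiensis), and of 2 individuals of the N. caerulescens population from Viviez (Viviez). The labels call N. montana and Viviez plants that do not accumulate nickel and firmiensis a nickel hyperaccumulator. N. montana came from Suc de Clava in the Ardeche, and the other plants from Puy de Wolf and Viviez in the Aveyron. Firmiensis was collected in July, N. montana and Viviez in June, so that site, and for firmiensis also month, cannot be told apart from plant. The labels describe the sites as serpentine soil or a zinc mine without saying which plant grew on which. All leaves were stabilised in RNAlater and gave 1 polyA RNA library per individual. Replicates 1 and 2 of a plant are its separate individuals, and pairs of values are given in that order.

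Hyperaccumulator plants take up metals such as nickel or zinc through the root, load them into the xylem and store them in leaf cells at levels that poison other plants. N. caerulescens is a widely used model of this trait, and its populations differ in which metals they store. N. montana is a close relative, and transcripts read in its field leaves and not in those of N. caerulescens compare the leaf reads of these plants. The contigs come from a firmiensis assembly, so transcripts that only N. montana has cannot be seen here. In general, a transcript that is not read in a leaf may come from a gene that is absent, silent, or too different in sequence for its reads to be placed. For firmiensis, the reference described below was itself assembled from reads of the same subspecies. Which case holds for a contig was not tested, and in whole leaves fewer cells of a type cannot be told apart from less RNA per cell.

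Each library held 59476715 to 68439128 reads, and 1 CPM stood for 68.4 reads in each N. montana library. The ceiling of 3 reads over a plant's 2 libraries stood for 0.0250 CPM in firmiensis and 0.0244 CPM in Viviez. Contigs up to this ceiling count as not detected here although some of them had reads, and 0 reads can still hide a lower level. All contig names carry the prefix of firmiensis, whose transcriptome served as the common reference. Per the series' design text it was assembled from root and leaf reads of a plant grown in hydroponic culture with nickel. The 114 contigs therefore belong to a firmiensis assembly although firmiensis field leaves held at most 3 reads of each, and 63 of them had no read there. Whether their sequences came from root or leaf reads of the hydroponic plant was not tested. A transcript of N. montana without a counterpart in that assembly has no contig and cannot be among the members. The hydroponic libraries, 4 in number, were not analysed here.

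The 114 contigs made up 0.272% of all contigs and 0.55% of the 20714 that reached 1 CPM in both N. montana libraries. A member had between 71 and 7701 reads in N. montana replicate 1, with a median of 170.5. It had between 69 and 3170 reads in replicate 2, with a median of 159. In each of the firmiensis and Viviez libraries the members had between 0 and 3 reads, with a median of 0. Added together, the members reached 1104.6 and 559.1 CPM in N. montana replicates 1 and 2. The sums were 0.521 and 1.19 CPM in firmiensis replicates 1 and 2, and 0.793 and 0.536 CPM in Viviez replicates 1 and 2. As a share of N. montana reads they came to 0.0832 ± 0.0386% (SD, n = 2).

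**Figure D1:**
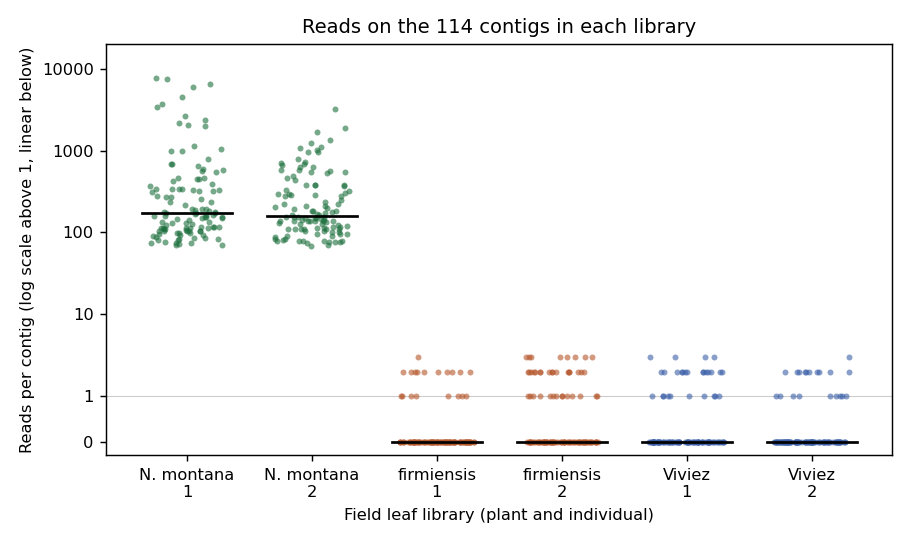
Reads on each of the 114 contigs (points) in the 6 field leaf libraries, with the median of each library as a bar; the vertical axis is logarithmic above 1 read. Points lie between 69 and 7701 reads in N. montana and between 0 and 3 reads in firmiensis and Viviez, a gap that the choice of the contigs sets.

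Of the 114 contigs, 45 (39.5%) had no read in any of the 4 N. caerulescens libraries. A further 27 were read in firmiensis and not in Viviez, 18 in Viviez and not in firmiensis, and 24 in both. Over both firmiensis libraries, 63 contigs had 0 reads, 11 had 1, 28 had 2 and 12 had 3. Over both Viviez libraries, 72 had 0 reads, 10 had 1, 24 had 2 and 8 had 3. Sums of 2 reads were thus more frequent than sums of 1 read in both plants. Among the 456 single values in those 4 libraries, 350 were 0, 41 were 1, 51 were 2 and 14 were 3. Whether both mates of a read pair had been counted was not tested.

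The few reads in N. caerulescens showed no steady order by level in N. montana. Members with a mean under 2 CPM in N. montana held on average 1.79 reads each over the 4 N. caerulescens libraries. The averages were 1.18 reads from 2 to 5 CPM, 2.25 from 5 to 10, 1.67 from 10 to 20, and 1.1 at 20 CPM or more. The median level in N. montana was 2.61 CPM for the 45 contigs without such reads and 2.32 CPM for the 69 with them. Firmiensis replicate 2 held the most of these reads, 72 on 39 contigs, against 31 on 19 in firmiensis replicate 1. Viviez replicate 1 held 50 reads on 28 contigs and Viviez replicate 2 held 32 on 20. The run label of Viviez replicate 2 has the number 4, that of each other field library the number 5, and no source used here explains it.

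The choice of the members fixed how they stand in a fit over all contigs, so their calls are given only as a description. All 114 passed the filter on low counts, through their reads in N. montana. With edgeR's quasi-likelihood fit and Benjamini-Hochberg adjustment over all 32989 contigs kept, 15.1% of contigs were called higher in N. montana than in firmiensis at an adjusted p of 0.05, and 114 of the 114 members were among them. Against Viviez, 20.5% of contigs were called higher in N. montana, again with all 114 members. With DESeq2 over 35492 contigs, 17.5% of contigs were called higher in N. montana than in firmiensis and 22.1% higher than in Viviez, with 103 of the 114 members in each comparison. The other 11 had DESeq2 adjusted p between 0.0728 and 0.137 against firmiensis and between 0.0647 and 0.124 against Viviez. Nothing is read from the members' counts against these shares.

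For the contigs with no read in a plant, the lower of the N. montana levels was set against 3 reads over that plant's 2 libraries. On this scale the 63 contigs without a firmiensis read were at least 40-fold to at least 1110-fold higher in N. montana, with a median bound of 71. The 72 contigs without a Viviez read were at least 42-fold to at least 1135-fold higher, with a median bound of 78. These bounds follow from the level in N. montana alone. They take each read as a separate count, and would be lower if both mates of a read pair had been counted, which was not tested.

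The highest members by mean level were Ncfi_contig_16363, Ncfi_contig_40622, Ncfi_contig_40138, Ncfi_contig_40137 and Ncfi_contig_31242, which together held 30.4% of the summed mean level of all 114. Ncfi_contig_16363 stood at 112.5 and 7.996 CPM in N. montana replicates 1 and 2, from 7701 and 547 reads, and had no read in firmiensis or Viviez. Ncfi_contig_40622 stood at 109.3 and 8.42 CPM in N. montana, against 0 and 2 reads in firmiensis and none in Viviez. The top pair thus rests mainly on N. montana replicate 1. Ncfi_contig_40138 stood at 94.92 and 5.569 CPM in N. montana, against no read in firmiensis and 2 and 0 reads in Viviez. Ncfi_contig_40137 stood at 87.14 and 5.467 CPM in N. montana and had no read in the other plants. Ncfi_contig_31242 stood at 49.93 and 24.54 CPM, again with no read elsewhere, and was the only contig of these 5 whose N. montana levels lay within 3-fold of each other.

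Among the 45 contigs with no read in N. caerulescens, the best supported by both individuals were Ncfi_contig_23244, Ncfi_contig_31242 and Ncfi_contig_28337. Ncfi_contig_23244 had 2620 and 1899 reads in N. montana, or 38.28 and 27.76 CPM. Its lower level was at least 1110-fold above the limit for firmiensis and at least 1135-fold above that for Viviez. Ncfi_contig_28337 had 997 and 793 reads, or 14.57 and 11.59 CPM, with bounds of at least 463-fold and at least 474-fold. In these contigs the N. montana individuals differed by 1.38-fold and 1.26-fold, against 2.03-fold in Ncfi_contig_31242.

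Most members were low in N. montana. Their mean level had a median of 2.481 CPM, against 17.16 CPM over the 20714 contigs present at 1 CPM or more in both N. montana libraries. There were 42 members under 2 CPM, 39 at 5 CPM or more, 19 at 10 CPM or more and 10 at 20 CPM or more. The members made up 2.71% of the 1548 present contigs with a mean of 1 to 2 CPM, 1.02% of those from 2 to 5 CPM and 0.676% of those from 5 to 10 CPM. They made up 0.257% from 10 to 20 CPM and 0.106% of the 9472 contigs at 20 CPM or more. The ceiling of 3 reads is the same at every level, so it asks for a larger ratio at a higher level.

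At the edge of the rule, Ncfi_contig_32242 was just inside with 1.432 and 1.009 CPM in N. montana, as was Ncfi_contig_28568 with 2.089 and 1.023 CPM. Just outside, Ncfi_contig_40427 had 0.979 and 1.579 CPM, and Ncfi_contig_26013 had 2.367 and 0.9648 CPM with no read in N. caerulescens. On the side of the read ceiling, Ncfi_contig_39122 and Ncfi_contig_17338 were members with the highest sum over N. caerulescens, 5 reads each. Ncfi_contig_10440 was left out by 4 reads in firmiensis replicate 2 although it stood at 37.49 and 21.62 CPM in N. montana. Ncfi_contig_32765 was left out by 3 and 1 reads in firmiensis, at 7.569 and 6.49 CPM in N. montana. In all, 140 contigs present in N. montana had between 4 and 10 reads in the N. caerulescens plant that held more of them, 328 had 11 to 30, and 972 had 31 to 100. Contigs thus lay just above the ceiling as well as under it. These classes differ in width, so their counts do not give the shape of the range.

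The N. montana individuals differed from each other more over the members than over all present contigs. The median absolute log2 ratio between the individuals was 0.504 over the 114 members and 0.309 over the 20714 contigs. At least 2-fold differences were found in 26.3% of members and 10.2% of present contigs, and at least 4-fold differences in 10.5% and 1.44%. Conversely, 60 members (52.6%) lay within 1.5-fold between individuals, as did 73.6% of present contigs. Pearson's r of log2 CPM between the individuals was 0.598 over the members and 0.950 over present contigs, which share the same 2 libraries but span a wider range of levels. With 1 library per individual there is no test of these differences. In every class of level the members' median ratio was the higher value: 0.39 against 0.32 at 1 to 2 CPM, 0.54 against 0.47 at 2 to 5, 0.69 against 0.38 at 5 to 10, 0.75 against 0.29 at 10 to 20, and 3.76 against 0.26 at 20 CPM or more.

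A set of 8 members was at least 8-fold higher in N. montana replicate 1 than in replicate 2, a bound chosen after the values were seen. Among all 20714 present contigs, 0.208% (43 contigs) passed that fold in that direction. The 8 ratios lay close together, between 10.5-fold and 17-fold with a median of 13.5-fold. The levels of the 8 ran from 28.9 to 113 CPM in replicate 1 and from 2.27 to 8.42 CPM in replicate 2. They include 4 of the 5 highest members named above, and Ncfi_contig_39122 at 28.86 and 2.266 CPM. The next ratio, 7.96-fold, was that of Ncfi_contig_40672 at 65.82 and 8.274 CPM, also singled out after its values were seen. Of the 8, 4 had no read in N. caerulescens, and together they held 11 reads over those 4 libraries.

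These 8 contigs account for most of the difference in summed level between the N. montana individuals. They summed to 548.3 CPM in replicate 1 and 38.46 CPM in replicate 2, which is 49.6% and 6.88% of the reads on all 114 members. The other 106 members summed to 556.3 CPM in replicate 1 and 520.6 CPM in replicate 2. Without the 8, the median absolute log2 ratio of the members was 0.484 and Pearson's r between the individuals was 0.705. Of the 43 present contigs past 8-fold in this direction, the 8 members made up 18.6%, 2 more were under the ceiling in Viviez and over it in firmiensis, and 33 were over both ceilings.

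In the other direction, 1 member was at least 8-fold higher in N. montana replicate 2, where 0.0676% (14) of present contigs were. Ncfi_contig_17775 had 80 reads in replicate 1 and 3170 in replicate 2, or 1.169 and 46.34 CPM, a 39.6-fold difference. It had no read in firmiensis and 2 and 1 reads in Viviez. At the even end of the members with a mean of at least 5 CPM, Ncfi_contig_815 had 676 and 668 reads in N. montana, or 9.877 and 9.765 CPM, and no read elsewhere. Ncfi_contig_39518 had 1030 and 1010 reads, against 0 and 1 in firmiensis and none in Viviez.

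**Figure D2:**
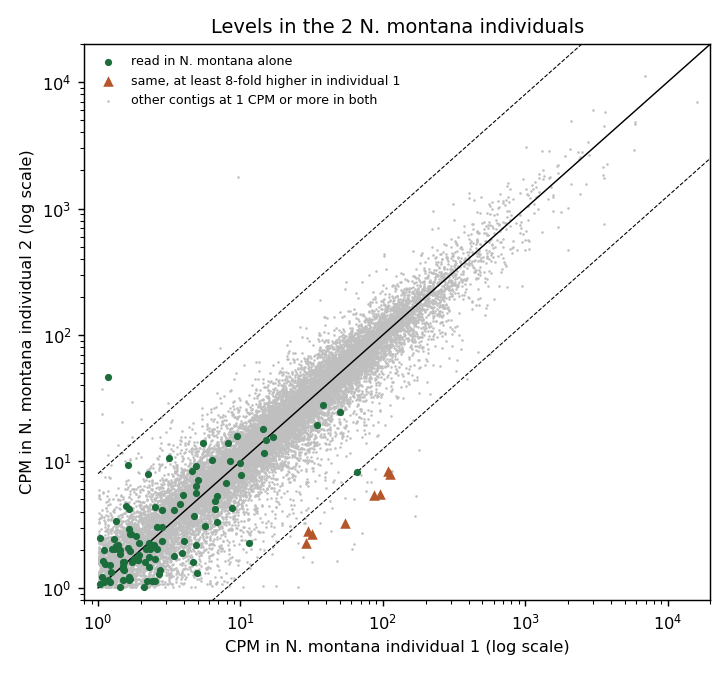
CPM in N. montana individual 1 (horizontal) against individual 2 (vertical), both on log scales, for the 114 members (dots and triangles) and the other contigs at 1 CPM or more in both (grey); the solid line marks equal levels and the dashed lines an 8-fold difference. The 8 triangles lie 10.5-fold to 17-fold towards individual 1, and 1 dot lies 39.6-fold towards individual 2.

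Requiring both individuals left out 94 contigs that met the read ceilings and reached 1 CPM in only 1 of the N. montana libraries. Replicate 1 gave 59 of them, with up to 22 CPM there and a median of 0.424 CPM in replicate 2. Replicate 2 gave 35, with up to 6.7 CPM there and a median of 0.453 CPM in replicate 1. Few of these contigs were missing from the other individual: 7 of the 59 had no read in replicate 2, and 2 of the 35 had none in replicate 1. At least 8-fold differences were found in 16 of the 59 and 10 of the 35, counting those with no read in the other individual. Lying on either side of 1 CPM chose these contigs, so some difference between individuals is built in.

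Leaving out a library of the other plants also let contigs in. Without firmiensis replicate 1 the rule took 161 contigs and without firmiensis replicate 2 it took 194. Leaving out a library only loosens the rule, so the 114 always stay among them. Of the 80 contigs added without firmiensis replicate 2, 9 stood at 1 CPM or more in that library, with up to 23.1 CPM. Of the 47 added without firmiensis replicate 1, 11 did, with up to 55.4 CPM. Without Viviez replicate 1 the rule took 143 contigs and without Viviez replicate 2 it took 127. Of the 29 added without Viviez replicate 1, 1 stood at 1 CPM or more there, and of the 13 added without Viviez replicate 2 none did, the highest being 0.268 CPM. Omitting N. montana replicate 1 gave 149 contigs, and omitting its replicate 2 gave 173.

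The 2 absences that define the members met unevenly. Of 200 contigs present in N. montana and not detected in firmiensis, 57% were members, and of 464 present in N. montana and not detected in Viviez, 24.6% were. The other 86 of the 200 had a median of 18 reads over both Viviez libraries, and 7 of them reached 1 CPM in both. The other 350 of the 464 had a median of 69.5 reads over both firmiensis libraries, and 112 of them reached 1 CPM in both.

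The same rule applied to the other plants gave shorter lists, 60 contigs for firmiensis and 23 for Viviez. The lists were 0.55% of the contigs present in N. montana, 0.305% of those present in firmiensis and 0.119% of those in Viviez. Median levels in the plant concerned were similar, at 2.48 CPM in N. montana, 2.99 CPM in firmiensis and 2.41 CPM in Viviez. The members took 0.11% and 0.0559% of N. montana reads in replicates 1 and 2, against 0.0325% and 0.0345% for the firmiensis list in firmiensis and 0.0139% and 0.0101% for the Viviez list in Viviez. In each plant, the median absolute log2 ratio between its individuals was higher over its list than over all contigs present in it. It was 0.504 against 0.309 in N. montana, 0.497 against 0.354 in firmiensis and 0.383 against 0.223 in Viviez. At least 8-fold differences between the individuals of the plant concerned were found in 9 of 114 contigs of N. montana, 1 of 60 of firmiensis and 0 of 23 of Viviez. Over all contigs present in each plant the shares past 8-fold were 0.275%, 0.428% and 0.0777% in the same order. No test was made between these lists, which were chosen on their own levels. The contigs had been assembled from firmiensis, and how far this shaped the length of each list was not tested.

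Member contigs carried higher numbers than most contigs present in N. montana. Their numbers ran from 815 to 41695 with a median of 27821, against a median of 11772.5 over the 20714 present contigs. Members made up 0.113% of present contigs numbered up to 10000 and 0.285% of those from 10001 to 20000. Their share was 1.08% from 20001 to 30000, 3.45% from 30001 to 40000 and 4.29% above 40000. The level in N. montana moved with the number: the median over present contigs was 34.7 CPM up to 10000 and 4.18 CPM above 40000. Among present contigs with a mean of 1 to 5 CPM, members made up 2.45% of those numbered above 20000 and 0.736% of the lower numbers. At 5 CPM or more the shares were 1.21% and 0.0943%. The lists for firmiensis and Viviez ran the same way, with 0.115% and 0.0234% of the contigs present in the plant concerned up to number 10000, and 1.98% and 0.791% above 40000. No source used here says what the numbering follows.

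**Figure D3:**
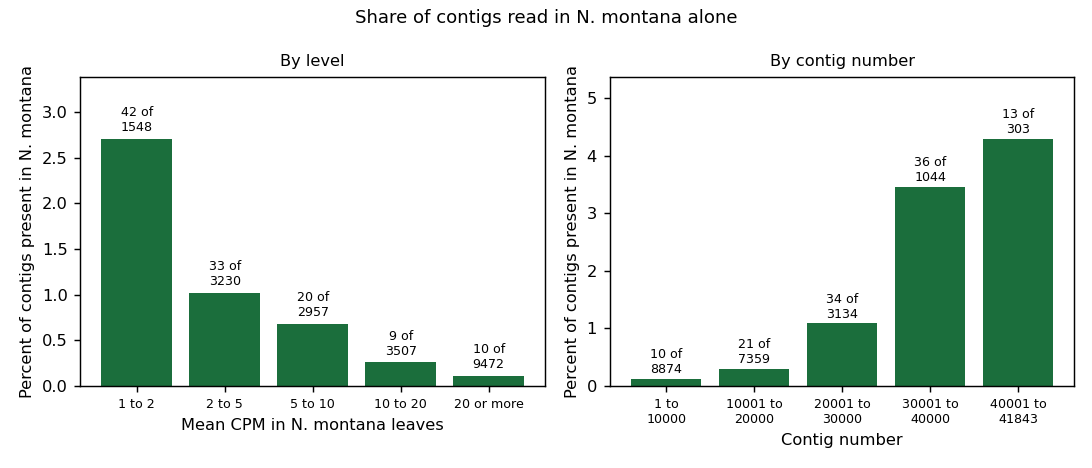
Members as a percentage of contigs at 1 CPM or more in both N. montana libraries, by mean level (left; each class excludes its upper bound) and by contig number (right), with the counts above the bars. The share falls from 2.71% at 1 to 2 CPM to 0.106% at 20 CPM or more, and rises with contig number up to 4.29%.

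Contigs of neighbouring numbers were also looked at. Ncfi_contig_40137 and Ncfi_contig_40138 were the only members with consecutive numbers, and both belong to the 8 contigs that stood far higher in replicate 1, with log2 ratios of 3.99 and 4.09. Of the 228 contigs numbered just below or above a member, 93 were present in N. montana, and 4 of these had at most 10 reads in each other plant. These 4 are that pair and 2 contigs outside the rule, singled out after their values were seen. Ncfi_contig_10440, described above, stands beside the member Ncfi_contig_10439, and their levels in N. montana were 37.49 and 21.62 CPM for the first and 34.41 and 19.57 CPM for the second. Ncfi_contig_23930, at 3.346 and 3.625 CPM, stands beside the member Ncfi_contig_23931, at 2.805 and 2.368 CPM. Over all present contigs, 0.679% (201 of 29608) of present neighbours had so few reads elsewhere, against 4.3% (4 of 93) for the members. The pair of members counts for 2 of those 4, each as the other's neighbour. The shares were not matched for contig number, and members carried higher numbers, where contigs read in N. montana alone were more frequent. Whether neighbouring contigs are parts or copies of the same transcript was not tested, and reads shared between near-identical contigs leave the level of each uncertain to that extent.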

How the data were processed

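Leaves of 6 field plants were profiled by RNA-seq. Strand-specific polyA libraries had been made from DNase-treated total RNA, per the labels' protocols. The authors deposited raw read counts of each contig, per the file headers, with 1 value per library and no pooling of replicates. No source used here names the assembler, the aligner, the counter or a filter. Of 41843 contigs, 2 with empty cells were left out, and 0 columns of other samples were found.

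Unscaled CPM were computed from column totals. Counts were tested with edgeR 4.0.16 in R 4.3.3: filterByExpr (minimum count 10) kept 32989 contigs with 99.956% of reads, TMM scaling was used, and all 6 libraries entered 1 fit by plant with 3 residual degrees of freedom. DESeq2 1.42.0 was an alternative. The procedure was also run on simulated counts, where each contig had 1 mean over all libraries before changes were added to well-read contigs. Those settings differ from the members' few reads in N. caerulescens, so nothing is drawn from them about the members' calls. Replicates are separate individuals. Counting limits cover counting error only, since reads are not independent molecules.

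Named contigs are the 5 of highest mean level, the 3 with no read in N. caerulescens and the highest lower level, the 2 most and 2 least different between N. montana individuals at a mean of 5 CPM or more, and the 2 on either side of each threshold. Contigs outside this rule are marked in the text. The members and lists were chosen with earlier results of these data known. Same-numbered libraries shared only a number: the correlation of their deviations lay between -0.06 and 0.016 for the pairs of plants.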

Additional observations from a re-analysis of the deposited data

How the results depend on the processing

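The number of contigs found depends on the limits of the rule. It was 187 at a minimum of 0.5 CPM, 55 at 2 CPM and 21 at 5 CPM, and 45 with a ceiling of 0 reads and 254 with a ceiling of 10. With TMM-scaled CPM it was 99. The N. montana scaling factors of 1.1088 and 1.1669 lower the CPM there, so these 99 could only come from the 114. Leaving out single libraries gave 127 to 194, past 1.5 times the 114 without N. montana replicate 2 (173) and without firmiensis replicate 2 (194). After such an omission a plant is left with 1 library, assumed in the edgeR fit to vary like the other groups, so members called are not counted there. The calls over all contigs that follow take both directions together. Over all contigs, calls against firmiensis ran from 5319 to 7537, below the 10195 by over 1.5 times without firmiensis replicate 1 (5936) and without either N. montana library (5319 and 5941). Calls against Viviez ran from 5174 to 12327, below the 12078 by over 1.5 times without Viviez replicate 1 (5174) or 2 (5250) and N. montana replicate 1 (7563) or 2 (7625). With the replicate block, 7458 and 9485 contigs were called in either direction against firmiensis and Viviez. Of the 32989 tested, 3624 were called higher in N. montana than in firmiensis and 5326 higher than in Viviez. All 114 members were among them in each comparison, which their choice fixed. The median absolute log2 ratio between N. montana individuals was 0.883 over members at a mean of 5 CPM or more, and 0.484 without the 8 contigs far higher in replicate 1, an alternative added after seeing the data. Contigs with up to 3 reads over an N. caerulescens plant count as not detected here although some had reads, and 0 reads can still hide a lower level.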
